A study of Mus musculus with 12 samples.

Results

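Plau, Plaur, Thbd, Thbs1 and F13a1 are 5 genes of plasminogen activation and coagulation, chosen by symbol from the 770 genes of the panel, of which 750 were tested between groups and 20 served as references. Plau encodes urokinase, the protease that cleaves plasminogen to plasmin, and Plaur encodes the receptor that holds urokinase at the cell surface. Plasmin degrades fibrin and pericellular matrix. Thrombomodulin (Thbd) binds thrombin and turns it toward activation of protein C, the A chain of coagulation factor XIII (F13a1) cross-links fibrin, and thrombospondin-1 (Thbs1) is a matrix glycoprotein of platelets, macrophages and stromal cells that activates latent TGF-beta. Urokinase, its receptor and F13a1 are well known in monocytes and macrophages, thrombomodulin in endothelium.

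The tumors grew from A20 cells, a mouse B-cell lymphoma line implanted under the skin of female Balb/c mice aged 7 to 8 weeks. About 7 days later each tumor received PBS, SE (the 2% stable emulsion alone) or GLA-SE (10 µg of the TLR4 agonist GLA in 50 µl of that emulsion, called G100 in the study). Injections were given 3 times, on alternate days, and tumors were taken 2 h after the final one. RNA of 4 tumors per group, each from a separate mouse, was hybridized to an nCounter panel of mouse immune genes (PanCancer Immune Profiling), whose barcoded probes are counted without amplification or sequencing. The labels name no engineered allele in the hosts or the A20 cells of any group, and all 12 tumors were assayed as whole tissue. Fewer cells of a type and less RNA per cell therefore cannot be told apart in any of the values.

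Total counts ranged from 810260 to 1612415 per tumor. Values are counts after scaling by the geometric mean of 17 stable reference genes of the panel, unless stated otherwise. The 4 SE tumors did not resemble one another. In SE replicates 3 and 4, 73.2% and 80.1% of the 750 genes lay above all 4 PBS tumors, as did 75.2% to 85.1% in the GLA-SE tumors, against 21.6% and 21.1% in SE replicates 1 and 2. SE replicate 4 also had the lowest reference level, a geometric mean of 1011 counts against 1647 to 3077 in the other 11 tumors. B-cell markers, the identity of A20, were present in every tumor, with a summed level of 14042 to 23138. The depth of single values was ample for all 5 genes. The lowest deposited count of any of them was 51, for Thbd in SE replicate 2, with an exact Poisson 95% interval of 38.0 to 67.1 that covers counting error only.

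All 5 genes rose in GLA-SE tumors against PBS tumors on the scale of the reference genes, whereas on the scale of the panel median 0 of the 5 were called and Plau turned to a log2 fold change of -0.025. On the reference scale the 4 GLA-SE tumors lay above the 4 PBS tumors for each gene. In edgeR's quasi-likelihood test with Benjamini-Hochberg adjustment over 750 genes, the share of all genes called higher was 68.3% (512 genes, with 3 lower), and 63.6% of all genes did not overlap in this direction. The 5 of 5 must be read against that background. The median log2 fold change of the 5 genes was 1.49, against 0.89 over all genes. Scaling to the panel median moved the median of all genes to -0.40, and TMM scaling moved it to -0.0087 and called Thbs1 alone. Within the panel, the fold change of Thbs1 exceeded that of 93.2% of the genes, Thbd 81.7%, Plaur 78.6%, F13a1 76.9% and Plau 68.1%.

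**Figure D1:**
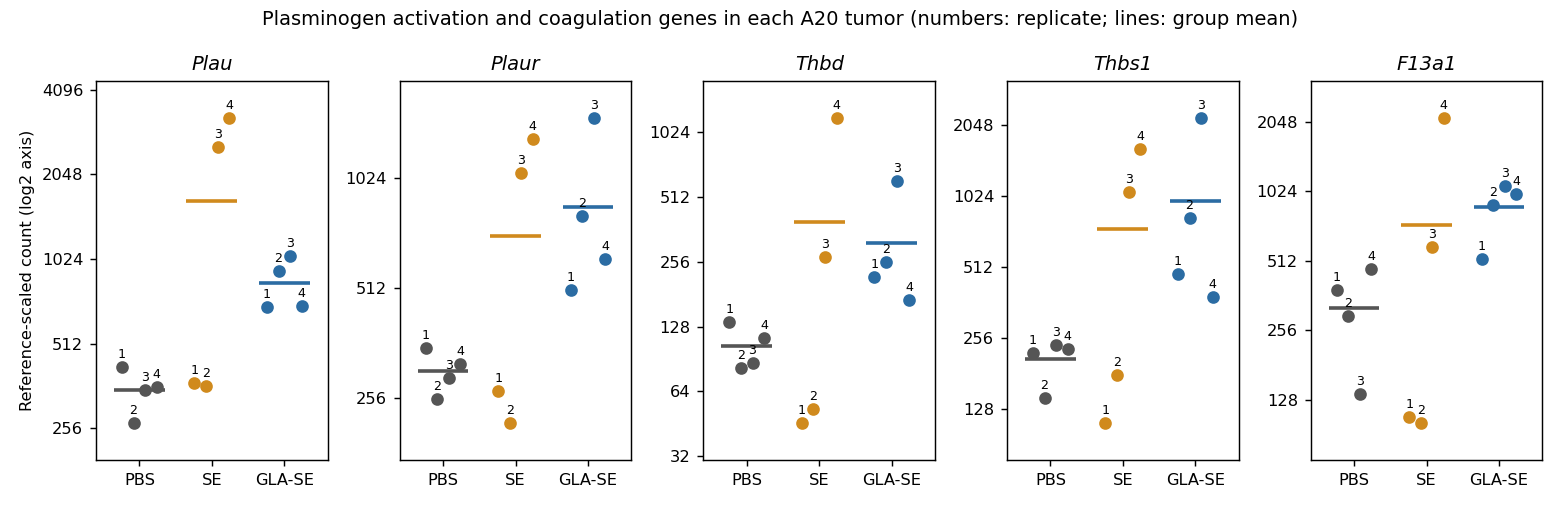
Reference-scaled counts (log2 axis) of Plau, Plaur, Thbd, Thbs1 and F13a1 in each of the 12 A20 tumors, by treatment, where each point is 1 tumor with its replicate number and each line is a group mean. For each gene the 4 GLA-SE tumors lie above the 4 PBS tumors, while SE replicates 1 and 2 lie within or below the PBS range and SE replicates 3 and 4 above it (panel median scaling, which is not plotted, turned the GLA-SE against PBS difference of Plau to -0.025).

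Plau, the activator itself, stood at 423, 266, 350 and 359 in PBS replicates 1 to 4, and GLA-SE replicates 1 to 4 held 690.0, 925, 1049 and 695. The lowest GLA-SE tumor was 1.63 times the highest PBS tumor, the widest gap of the 5 genes. The gene lies on chromosome 14 (GRCm38.p6, 20836662 to 20843388). Group means were 350 ± 64.2 and 840 ± 177 (SD, n = 4 each), a log2 fold change of 1.26 (standard error 0.19, 95% interval 0.82 to 1.71, edgeR adjusted p = 0.000864). The SE tumors held 370, 362, 2571 and 3259. Replicates 3 and 4 thus carried more Plau than any GLA-SE tumor, and replicates 1 and 2 lay inside the PBS range.

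Plaur, the urokinase receptor, was 352, 255, 291 and 318 after PBS and 507, 806, 1502 and 615 after GLA-SE. It rose 2.82-fold (log2 1.49, standard error 0.33, edgeR adjusted p = 0.00426), from 304 ± 41.1 to 857 ± 447 (SD, n = 4 each). In the SE tumors it was 268, 219, 1057 and 1309, again 2 tumors above the PBS range, with 1 within it and 1 below. RefSeq places Plaur on chromosome 7 of the mouse genome (GRCm38.p6, 24460937 to 24475970). RefSeq promoter windows were matched for 2 of the 5 genes, Plaur and F13a1, and are shown for that reason alone. That of Plaur covers 250 bases before to 50 after a RefSeq start, 5′ to 3′, at chr7:24462233-24462532 on the plus strand. That start lies inside the locus above and not at its first base (24460937). Matches to AP-1 (TGANTCA) and Sp1 (GGGCGG) are in capitals.
Plaur: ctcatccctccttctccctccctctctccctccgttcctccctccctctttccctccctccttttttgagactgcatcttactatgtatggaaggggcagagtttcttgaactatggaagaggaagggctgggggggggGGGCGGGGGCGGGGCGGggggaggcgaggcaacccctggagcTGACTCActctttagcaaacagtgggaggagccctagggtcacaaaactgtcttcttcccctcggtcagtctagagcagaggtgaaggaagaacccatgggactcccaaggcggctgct
The AP-1 match TGACTCA began 69 bases before the start (base 182 of the window), and 3 Sp1 matches began 111, 105 and 100 bases before it, the latter pair sharing 1 base. Both strands were searched, also for TATAAA and the NF-kB consensus, which gave no match. Over 32851 RefSeq promoters of the same length, 7.81% held the AP-1 letters, 35.7% the Sp1 letters, 13.6% TATAAA and 4.51% the NF-kB consensus. A match of letters is a description of this window and not a binding site.

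Thbd, the thrombin receptor of the anticoagulant branch, had the lowest deposited counts of the 5 genes and so the widest counting error. PBS tumors held 134, 82.3, 86.9 and 114, GLA-SE tumors 218, 255, 610 and 171. Every GLA-SE tumor exceeded every PBS tumor, with means of 104 ± 24.1 and 313 ± 200 (SD, n = 4 each), and the log2 fold change was 1.59 ± 0.41 (standard error, edgeR adjusted p = 0.00833). The SE tumors spanned the widest range seen for any of the 5 genes, 45.5, 53.1, 269 and 1195, a ratio of 26.3 between highest and lowest. SE replicates 1 and 2 were below, and SE replicates 3 and 4 above, all PBS tumors.

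Thbs1 had the largest fold change of the 5 in GLA-SE tumors and also a wide spread there. It was 222, 143, 240 and 230 after PBS and 479, 822, 2189 and 383 after GLA-SE. The means were 209 ± 44.4 and 968 ± 835 (SD, n = 4 each), a 4.63-fold rise (log2 2.21, standard error 0.54, 95% interval 0.99 to 3.43, edgeR adjusted p = 0.00687). GLA-SE replicate 3 was far above the other GLA-SE tumors, and without it the log2 fold change was 1.43. SE tumors were at 112, 178, 1063 and 1620, with replicates 3 and 4 above all PBS tumors. Thbs1 and Thbd both lie on chromosome 2 (GRCm38.p6), Thbs1 at 118111876 to 118127133 and Thbd at 148404471 to 148408188.

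F13a1, the fibrin cross-linking chain, varied most among the PBS tumors, at 382, 294, 136 and 470, a coefficient of variation of 44.5% against 13.5% to 23.1% for the other 4 genes. GLA-SE tumors held 521, 890, 1074 and 997, so the lowest was 1.11 times the highest PBS tumor, the narrowest gap of the 5. The log2 fold change was 1.44 (standard error 0.37, edgeR adjusted p = 0.00882), with means of 321 ± 143 and 871 ± 245 (SD, n = 4 each). SE tumors were at 107, 101, 587 and 2129, the first pair below every PBS tumor. F13a1 lies on the minus strand of chromosome 13 (GRCm38.p6, 36867178 to 37050244). RefSeq gives it a pair of starts, and the window of the outer one (chr13:37050195-37050494, minus strand, 5′ to 3′) is shown for contrast with Plaur.
F13a1: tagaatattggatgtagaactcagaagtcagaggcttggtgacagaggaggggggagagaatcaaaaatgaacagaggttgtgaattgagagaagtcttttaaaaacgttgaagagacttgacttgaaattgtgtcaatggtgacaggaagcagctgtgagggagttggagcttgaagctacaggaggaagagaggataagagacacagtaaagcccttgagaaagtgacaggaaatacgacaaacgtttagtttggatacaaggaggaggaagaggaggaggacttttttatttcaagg
No capitals appear because neither this window nor that of the inner start (chr13:37049164-37049463) held any of the 4 motifs. The GC content was 42.7% in the outer window and 54.7% in the inner one, against 59.3% for Plaur.

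In a two-sided exact permutation test on the scaled counts of each gene, p was 0.0286 for all 5 in GLA-SE against PBS, the smallest p that 70 assignments of the 8 tumors can give. GLA-SE replicate 3 was the highest of its group for all 5 genes. Without it the log2 fold changes were 1.14 for Plau, 1.08 for Plaur, 1.04 for Thbd, 1.43 for Thbs1 and 1.33 for F13a1. All 5 stayed under an edgeR adjusted p of 0.05 whichever of the 8 tumors was left out, the highest being 0.0273 for Thbd. When all 12 tumors entered 1 fit and shared the spread of the SE tumors, 0 of the 5 were called, at the same fold changes (Plau 1.26, Thbs1 2.21) and edgeR adjusted p values of 0.0559 to 0.177.

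**Figure D2:**
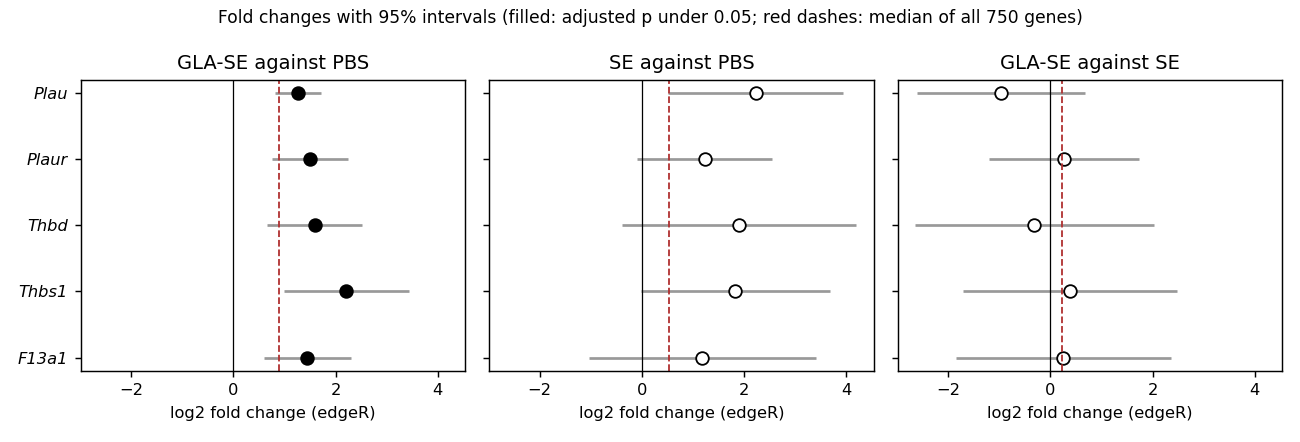
Log2 fold changes of the 5 genes (points, filled where the edgeR adjusted p was under 0.05) with 95% intervals (bars) in the 3 comparisons, and the median of all 750 genes as a red dashed line. In GLA-SE against PBS all 5 intervals lie above 0 (with panel median scaling, not plotted, 0 of the 5 were called and Plau was at -0.025), while in GLA-SE against SE all 5 intervals include 0.

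The emulsion alone was compared with the same 4 PBS tumors to see what the carrier did without GLA. None of the 5 genes was called (0 of 5), and neither was any of the 750 genes by edgeR (0% called higher), although 140 genes had an unadjusted p under 0.05 and DESeq2 with the same reference scaling called 54 higher and 6 lower. None of the 5 was free of overlap with PBS, against 8.67% of all genes that lay above. Plau had the largest estimate, a log2 fold change of 2.23 (standard error 0.74, 95% interval 0.51 to 3.94) with an unadjusted p of 0.0171, an edgeR adjusted p of 0.243 and a two-sided exact permutation p of 0.143. DESeq2 with reference scaling called it (adjusted p = 0.0183). The estimates for the others were 1.23 for Plaur, 1.90 for Thbd, 1.83 for Thbs1 and 1.19 for F13a1, with intervals that reached below 0 and edgeR adjusted p values of 0.243 to 0.401.

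SE replicates 3 and 4 were the high tumors for all 5 genes. Each of them lay above all PBS tumors for 5 of 5 genes, whereas replicates 1 and 2 each lay within the PBS range for 2 genes, below it for 3 and above it for 0. Without SE replicate 4 the log2 fold changes dropped to 1.65 for Plau, 0.75 for Plaur, 0.22 for Thbd and 1.11 for Thbs1, and F13a1 turned to -0.28. Groups of 4 with such a spread give wide intervals, and a missed threshold does not show that SE and PBS tumors were alike.

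GLA-SE and SE tumors, which differ by the TLR4 agonist, could not be separated for any of the 5 genes. None was called by edgeR (0 of 5, against 2.13% of all genes called higher, with 133 genes at an unadjusted p under 0.05). None was free of overlap, against 14.4% of all genes with GLA-SE above SE. The log2 fold changes were -0.96 for Plau (95% interval -2.62 to 0.69), 0.27 for Plaur (-1.20 to 1.73), -0.31 for Thbd (-2.64 to 2.02), 0.38 for Thbs1 (-1.70 to 2.47) and 0.26 for F13a1 (-1.84 to 2.35). Two-sided exact permutation p values ran from 0.343 for F13a1 to 0.714 for Plau. Some signs turned with single tumors, as Thbd did without SE replicate 4 (1.36), Thbs1 without GLA-SE replicate 3 (-0.40) and F13a1 without SE replicate 1 or 2 (-0.11 each), whereas Plau stayed negative in all 8 such fits (-1.30 to -0.39). Without SE replicate 4 the estimate for F13a1 was 1.72. Panel median scaling turned Plaur to -0.22. With intervals this wide, a missed threshold does not show that GLA-SE and SE tumors were alike.

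The balance among the 5 genes also varied across tumors. Ratios of deposited counts within a tumor need no reference gene, and although their size depends on the probes, they can be set side by side across tumors. Plau over Plaur was 1.20, 1.04, 1.20 and 1.13 in the PBS tumors, 1.38, 1.66, 2.43 and 2.49 in the SE tumors, and 1.36, 1.15, 0.698 and 1.13 in the GLA-SE tumors. All 4 SE tumors were above all PBS tumors, including SE replicates 1 and 2, whose Plau and Plaur levels were near those of PBS. They were also above all GLA-SE tumors, though SE replicate 1 and GLA-SE replicate 1 were nearly equal.

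Plau over Thbs1 was again highest in SE tumors, 2.01 to 3.32 in SE, 1.46 to 1.90 in PBS and 0.479 to 1.81 in GLA-SE tumors. In GLA-SE replicate 3 both ratios were the lowest of the 12 tumors. Plaur over Thbd was 1.10 in SE replicate 4 against 2.33 to 5.90 in the other 11 tumors, while Plau over Thbd was lowest in GLA-SE replicate 3 (1.72), followed by SE replicate 4 (2.73). Thbd over F13a1 was 0.425 to 0.561 in the SE tumors and 0.350, 0.280, 0.640 and 0.242 in PBS replicates 1 to 4, so that PBS replicate 3 alone lay above the SE tumors and the other PBS tumors below them. These ratios were chosen for description after the values were seen, and no test is given.

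**Figure D3:**
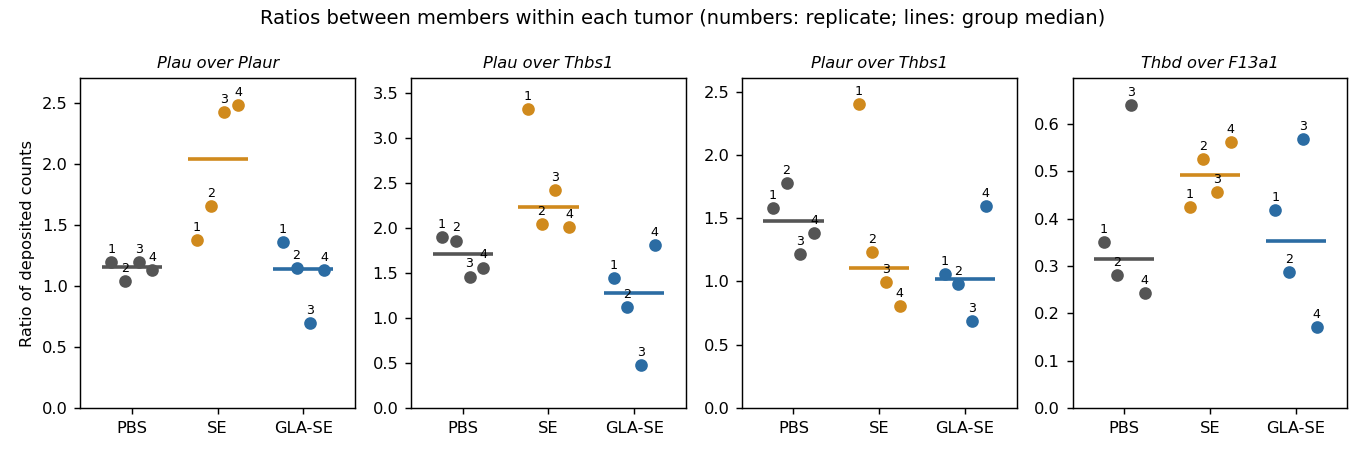
Ratios of deposited counts between members in each tumor (linear axis from 0), for Plau over Plaur, Plau over Thbs1, Plaur over Thbs1 and Thbd over F13a1, where each point is 1 tumor with its replicate number and each line is a group median. Plau over Plaur is 1.38 to 2.49 in the SE tumors, above the 1.04 to 1.20 of the PBS tumors and the 0.698 to 1.36 of the GLA-SE tumors.

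Across the 12 tumors the 5 genes varied together, as a description over points that share scaling and treatment. Pearson's r of log2 values was highest for Plaur and Thbs1 (0.974) and lowest for Plau and F13a1 (0.748). With group means removed it ran from 0.793 for Thbs1 and F13a1 to 0.962 for Plaur and Thbs1. High values were common in the panel, where the median r over 673 genes was 0.704 for Plau, 0.780 for Plaur, 0.783 for Thbd, 0.764 for Thbs1 and 0.749 for F13a1.

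The genes most like each member were drawn from those with a mean scaled count of at least 20. For Plau they were Tollip (0.975), Trem2 (0.973), a receptor of macrophages, and Lgals3 (0.964), which encodes galectin-3. Plaur went with Ccl7 (0.978), a monocyte chemokine, Thbs1 (0.974) and Cd68 (0.970), a macrophage marker. Thbd was closest to Cd99 (0.974), Notch1 (0.970) and Abcb1a (0.963), and Thbs1 to Plaur (0.974), Il1r1 (0.956) and Cd86 (0.952). F13a1 was closest to Vim (0.977), which encodes vimentin, and to the chemokines Ccl9 (0.970) and Ccl6 (0.968).

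Partner genes of the pathway were 16 in number, of which 14 had a mean scaled count of at least 20. In GLA-SE against PBS 11 of 16 rose and 0 fell, with 10 not overlapping, at a median log2 fold change of 1.08, whereas panel median scaling called 6, all lower. These counts were close to the background of the panel, where 68.3% of all genes were called higher and 63.6% did not overlap. The receptors that take up or engage urokinase, its receptor or thrombospondin-1 were 7 of these 16 genes, and all 7 were called, without a test of the subgroup against that background. Lrp1, the clearance receptor of protease-inhibitor complexes, rose by 1.56 on the log2 scale (edgeR adjusted p = 0.000219), with 349 to 438 after PBS and 936 to 1543 after GLA-SE. Itgam and Itgb2, the chains of the Mac-1 integrin, rose by 1.56 and 1.16, and Itga5 and Itgb1, the chains of the fibronectin receptor, by 1.65 and 0.56. Cd47 rose by 0.93, and Cd36, the other thrombospondin receptor, by 1.02 with overlap between the groups.

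The inhibitors and coagulation factors were mixed. Serping1, the C1 inhibitor that also blocks factor XII and kallikrein, rose by 1.66 (edgeR adjusted p = 0.000471), and Vwf, which tethers platelets, by 1.50 (adjusted p = 0.00843). Neither F12 (log2 0.05) nor A2m (log2 0.16) was called, and both had mean scaled counts near or below 20. Serpinb2, which encodes plasminogen activator inhibitor-2, had 50.1, 88.3, 1028 and 926 in the GLA-SE tumors against 67.2 to 251 in PBS. Only GLA-SE replicates 3 and 4 exceeded the PBS range, and the difference was not called (log2 1.85, edgeR adjusted p = 0.112). Of the substrates and activated proteins, Fn1 rose by 1.13 and Tgfb1 by 0.38, while Mmp9, a gelatinase, was at 0.40 (adjusted p = 0.269).

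**Figure D4:**
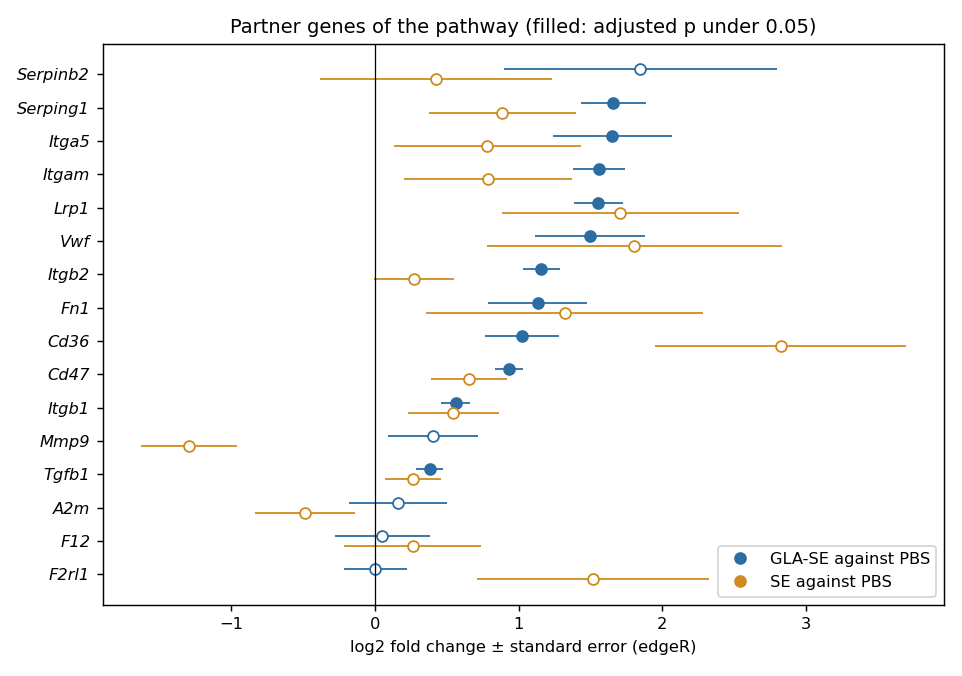
Log2 fold changes of the 16 partner genes (points, filled where the edgeR adjusted p was under 0.05) with standard errors (bars) in GLA-SE against PBS (blue) and SE against PBS (orange). In GLA-SE against PBS 11 of 16 were called higher, close to the 68.3% of all genes (panel median scaling, not plotted, called 6 instead, all lower), and in SE against PBS 0 of 16 were called, with Mmp9 at -1.29.

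In SE against PBS 0 of the 16 partners were called by edgeR, with 3 at an unadjusted p under 0.05 and 2 called by DESeq2 with reference scaling. Mmp9 was 103 to 128 in the SE tumors and 149 to 393 in the PBS tumors, without overlap (log2 -1.29, edgeR adjusted p = 0.243). Cd47 also had no overlap, in the other direction, at 1933 to 4452 in the SE tumors and 1583 to 1880 in the PBS tumors (log2 0.66, edgeR adjusted p = 0.243). Over all 750 genes, 8.67% lay above all PBS tumors in this way and 8 genes lay below. Cd36 had the largest estimate (2.82). F2rl1, which encodes protease-activated receptor 2, was 24.7, 18.7, 212 and 199 in the SE tumors and 29.9 to 46.1 in the PBS tumors. The difference was not called (log2 1.52, edgeR adjusted p = 0.258). In the GLA-SE tumors F2rl1 was 33.7 to 50.0. For F2rl1, as for the 5 genes, SE replicates 3 and 4 were the high ones.

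Mmp9 was the one partner called between GLA-SE and SE, where 2.13% of all genes were called higher. It was 320, 467, 435 and 272 in the GLA-SE tumors and 122, 103, 107 and 128 in the SE tumors, and the log2 difference was 1.70 ± 0.29 (standard error, edgeR adjusted p = 0.0225). Here SE replicates 3 and 4 did not stand apart from replicates 1 and 2. The call was lost with panel median scaling (log2 0.75, adjusted p = 0.222), TMM scaling (1.20, adjusted p = 0.135) and the replicate block (1.67, adjusted p = 0.155). With single tumors left out, it was kept without GLA-SE replicate 1 or SE replicate 4 and lost when any of the other 6 tumors was left out, at adjusted p values up to 0.116, while the log2 fold change stayed between 1.57 and 1.82.

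Like the 5 genes, summed markers of several cell types exceeded the PBS mean in SE replicates 3 and 4 and all GLA-SE tumors. These were monocytes and macrophages, neutrophils, endothelium, fibroblasts and pericytes, NK cells and mast cells. Platelet, T cell and dendritic cell markers departed from this in SE tumors only. In SE replicate 3 their log2 differences from the PBS mean were -0.013, -0.199 and 0.26, and in SE replicate 4 0.245, 1.727 and -0.178. In GLA-SE tumors they were 0.514 to 1.089, 0.69 to 1.154 and 0.223 to 0.754. Counts of called markers are to be read against the 68.3% of all genes called higher. All 8 monocyte and macrophage markers were called higher in GLA-SE against PBS, and their summed level was 28982 to 36991 after PBS and 83442 to 122773 after GLA-SE. In SE replicates 1 to 4 it was 24434, 31459, 73304 and 107462, the same split as for the 5 genes. Lyz2 made up most of these sums, with means of 29175 in PBS, 50693 in SE and 83083 in GLA-SE tumors. Fibroblast and pericyte markers (5 of 5 called) ran from 3473 to 8297 in PBS and 16996 to 24356 in GLA-SE, and were 2861, 3693, 27075 and 117134 in the SE tumors. Endothelial markers (5 of 5 called) were 648 to 977 in PBS and 1101 to 2269 in GLA-SE, and 687, 797, 1179 and 4350 in the SE tumors.

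On the reference scale SE replicate 4 was the highest of the 12 tumors for Plau, Thbd and F13a1, and also for the endothelial, fibroblast, T cell and mast cell markers. Scaling raised this tumor most, as its relative depth by the reference genes was 0.491. In deposited counts SE replicate 3 held more Plau (2058) than SE replicate 4 (1601), while SE replicate 4 stayed highest for Thbd (587) and F13a1 (1046). Without the scaling, its endothelial and T cell sums would not be the highest. The 5 T cell markers summed to 4389 there, against 619 to 2950 in the other 11 tumors. The 3 mast cell markers summed to 2268 there, against 54.1 to 411 in the other SE tumors, 80.2 to 98.0 in PBS and 147 to 265 in GLA-SE. The sum of the 3 platelet and megakaryocyte markers differed less, at 364 to 501 in PBS, 416 to 511 in SE and 616 to 917 in GLA-SE tumors. That sum hid opposite moves after SE. Mean Ppbp was 122 in PBS, 33.9 in SE and 167 in GLA-SE tumors. Itgb3 was 296, 389 and 533, and Itga2b 16.6, 26.1 and 27.2, in the same order. Neutrophil markers summed to 209 to 240 in PBS, 209 to 1205 in SE and 810 to 8875 in GLA-SE tumors, and the highest was GLA-SE replicate 3, which was also the highest of the GLA-SE tumors for all 5 genes. Of the 6 neutrophil markers 3 were called higher, and Ltf and Elane had group means under 20. Mean Mpo was 36.5 in PBS and 35.7 in GLA-SE tumors. S100a8, at 82.4 and 2684, was the largest part of the GLA-SE sum. Also called higher were 3 of 3 mast cell, 2 of 3 platelet, 4 of 5 T cell, 2 of 3 NK cell and 1 of 3 dendritic cell markers, while 2 of 7 B-cell markers were called lower. No marker in any list was at 0 in all 4 tumors of a group. The part of these cell types in the differences of the 5 genes was not tested.

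**Figure D5:**
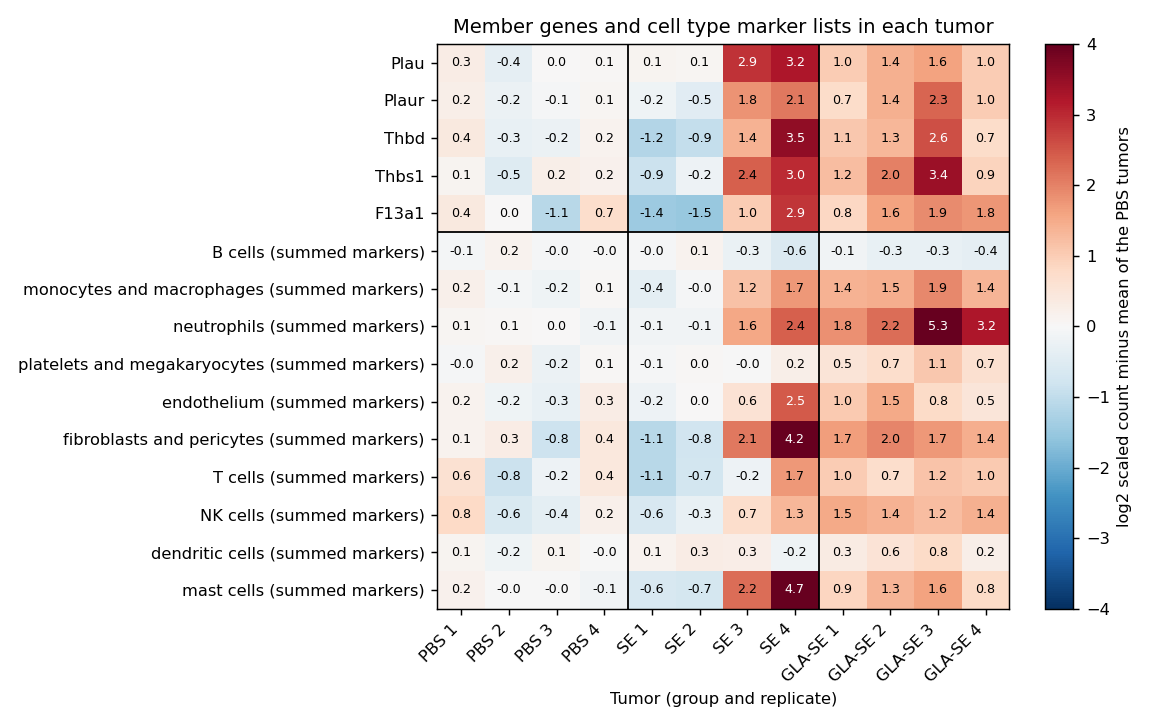
Log2 difference of each tumor from the mean of the PBS tumors, for the 5 genes and for the summed markers of 10 cell type lists, in the 12 tumors, with the value printed in each cell and colours saturating at 4. SE replicates 3 and 4 and all GLA-SE tumors are red for the 5 genes and for monocytes and macrophages. They are also above the PBS mean for neutrophils, endothelium, fibroblasts and pericytes, NK cells and mast cells. Summed B-cell markers lie between -0.6 and 0.2.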

How the data were processed

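The authors deposited 1 table of nCounter counts, whole numbers of barcoded probes for 770 genes in 12 tumors, and named nSolver normalization in the methods. In the deposited counts, reference genes vary from tumor to tumor. They were therefore treated as counts not scaled to reference genes, although an earlier adjustment cannot be told from the values, and edgeR's test for counts was used. No alignment or genome build applies to the probes, and RefSeq tables (GRCm38.p6) served for positions and promoters only. A geNorm procedure over all 12 tumors kept 17 of 20 reference genes, dropping Alas1, G6pdx and Gusb, whose geometric mean set the scale of each tumor. The 2 groups of each comparison were fitted alone with edgeR 4.0.16 (quasi-likelihood F test, no low-count filter, no covariate) in R 4.3.3, with Benjamini-Hochberg adjustment over 750 genes and a threshold of 0.05. Scaled counts of single genes were also compared by two-sided exact permutation. Correlations used log2(scaled count + 1). The comparisons with PBS share its 4 tumors.

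The genes named are the 5 members, 16 partners of the pathway, the 3 genes most correlated with each member, and marker lists. Members and lists were chosen with earlier results of these data known. Alternatives were all 20 reference genes, references selected within each comparison, panel median and TMM scaling, no rescaling, a filter of 20 counts in 4 of the 8 tumors, the replicate number as a block, all 12 tumors in 1 fit, limma 3.58.1 with a pseudocount of 1, DESeq2 1.42.0 with reference or own size factors, and leaving out each tumor. The fits were tested on simulated data. Python 3.11.15 with matplotlib 3.10.9 was used for figures.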

Additional observations from a re-analysis of the deposited data

Results flagged for a closer look

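Of 63 sets of 4 tumors searched (21 genes in 3 groups), 2 held a tumor far from the rest of its group, where chance alone gives about 5%, or 3.15 sets. Fn1, which encodes fibronectin, was 10221 in SE replicate 4 against 534 to 1589 in the other SE tumors. A2m was 24.6 in PBS replicate 4 against 16.8 to 17.8 in the other PBS tumors. None of the flags fell on Plau, Plaur, Thbd, Thbs1 or F13a1.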

How the results depend on the processing

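The fold changes of the 5 genes in GLA-SE tumors depended on the scaling, and their calls also on which tumors set the spread. In GLA-SE against PBS, panel median scaling called 0 of the 5 genes and 6 partners and turned Plau to -0.025. TMM scaling called 1 of the 5 and 7 partners (4 higher, 3 lower), a fit of all 12 tumors 0 and 4 (with fold changes as before, 1.26 for Plau and 2.21 for Thbs1), and DESeq2 with its own size factors 3 and 7 (5 higher, 2 lower). The calls over all genes moved as well, from 512 higher and 3 lower to 61 and 307 with the panel median, 148 and 168 with TMM, 253 and 0 with all 12 tumors, and 193 and 153 with DESeq2's own size factors. The other 7 settings called 5 of 5, and leaving out each tumor called 5 of 5 and 11 to 12 partners. In SE against PBS, DESeq2 with reference scaling called 1 of the 5 (Plau) and 2 partners, and with its own size factors 2 partners. Over all genes these settings called 54 higher and 6 lower, and 7 higher and 5 lower. F13a1 turned to -0.031 with the panel median, and ranged from -0.28 to 1.55 when each tumor was left out. In GLA-SE against SE, where Mmp9 was the partner called, 0 partners were called with the panel median, TMM or the replicate block, 2 with all 12 tumors in 1 fit or DESeq2 with reference scaling, 3 with no rescaling (3 higher) or DESeq2's own size factors (1 higher, 2 lower), and 0 to 3 when each tumor was left out. Calls over all genes moved too, from 16 higher and 0 lower to 0 and 0 with the panel median or replicate block. They were 3 and 0 with TMM, 69 and 1 with all 12 tumors, and 88 and 1 with no rescaling. DESeq2 called 102 and 7 with reference scaling, and 54 and 26 with its own size factors. Leaving out each tumor called 4 to 101 higher. Plaur turned to -0.22 with the panel median, and Thbd to 0.38 with no rescaling, 1.00 with the replicate block and 0.71 with limma. Leaving out each tumor gave -0.15 to 0.74 for Plaur, -0.86 to 1.36 for Thbd, -0.40 to 1.11 for Thbs1 and -0.11 to 1.72 for F13a1. The cause of these changes was not tested.

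Tumors with the same number did not deviate together (correlations -0.25 to 0.19), and 4, 2 and 2 of 8 tumors correlated best with their own number in GLA-SE against PBS, SE against PBS and GLA-SE against SE. The numbers were not taken as pairs. With the replicate block, 5 of 5 genes and 11 partners were called in GLA-SE against PBS, with 438 of all genes higher in place of 512.

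Counting error was small beside the spread between tumors for the 5 genes. Precision is also limited by the 4 tumors per group and by the split within SE.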
